A study of Mus musculus with 6 samples.

Results

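The genes described here are 10 transcripts of the unfolded protein response and the amino acid stress response, measured in sheets of forestomach epithelium from mice. They are Hspa5, Ddit3, Xbp1, Dnajb9, Herpud1, Atf4, Trib3, Asns, Chac1 and Creld2, chosen by name in the arrays' annotation. All 10 had probes, 13 in number, among the 27703 named genes on the array. The controls carried K5-CreER, in which the keratin 5 promoter of basal epithelial cells drives a recombinase that tamoxifen activates. The mutants carried K5-CreER;Rosa26Sox2/Sox2, that is, a Sox2 allele at both copies of the Rosa26 locus in addition to the recombinase. Mice of both groups received 2 doses of tamoxifen at an age of 7 weeks, were 12 weeks old per the labels, and came from a mixture of 129/Sv and C57/BL6. Each group had 3 arrays, which the labels call biological replicates without saying whether RNA of several mice was pooled. Every array set the sample, in Cy5, against the same reference RNA, pooled from 11 mouse cell lines and labelled with Cy3.

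Cells sense unfolded protein in the endoplasmic reticulum (ER) through the membrane proteins IRE1, PERK and ATF6. IRE1 splices Xbp1 mRNA, ATF6 is released by proteases in the Golgi, and both branches raise chaperones and degradation factors of the ER. PERK phosphorylates the translation factor eIF2 alpha, as GCN2 does when amino acids run short, and this favours translation of the transcription factor ATF4. ATF4 in turn raises genes of amino acid synthesis and import and of the tRNA synthetases, together with Ddit3, Trib3 and Chac1. Much of this control acts on splicing, phosphorylation and translation, which the arrays do not read.

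Promoter windows of all 10 genes, 250 bases before to 50 bases after the start, were found in RefSeq (GRCm38.p6) and searched on both strands for 4 response elements. The ER stress response element (ERSE), CCAAT and CCACG with any 9 bases between them, occurred in 39 of 32851 windows of all genes (0.119%), and in those of Hspa5 and Creld2. Its variant ERSE-II, ATTGG and CCACG with any 1 base between them, occurred in 12 windows (0.0365%), that of Herpud1 among them. The element bound by ATF4 and its partners, TGATGNAA, occurred in 1304 windows (3.97%) and in those of Asns, Chac1, Herpud1 and Trib3, in Trib3 at base 15 of the transcript. The unfolded protein response element TGACGTGG occurred in 222 windows (0.676%) and in none of the 10, and no match overlapped another motif. The stretches below are shown because they carry these matches, in capitals, and the last belongs to Syvn1, a related gene that passed the test. Of the other 4 related genes that passed, Cbs, Creld1 and Edem1 had no match in their windows, and no window of Sec11c was searched. Each has 100 bases, written 5′ to 3′ on the gene's strand, at chr2:34771984-34772083 (+), chr15:88819479-88819578 (+), chr8:94386302-94386401 (+), chr6:7693210-7693309 (-), chr2:119351003-119351102 (+) and chr19:6046476-6046575 (+). A match describes the letters and does not show a bound site.
Hspa5: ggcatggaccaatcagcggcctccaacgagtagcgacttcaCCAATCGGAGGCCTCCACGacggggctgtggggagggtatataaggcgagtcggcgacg
Creld2: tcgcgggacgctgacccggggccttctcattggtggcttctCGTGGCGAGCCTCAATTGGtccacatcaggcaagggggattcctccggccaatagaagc
Herpud1: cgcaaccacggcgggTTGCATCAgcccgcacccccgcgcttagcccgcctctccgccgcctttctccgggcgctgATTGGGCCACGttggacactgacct
Asns: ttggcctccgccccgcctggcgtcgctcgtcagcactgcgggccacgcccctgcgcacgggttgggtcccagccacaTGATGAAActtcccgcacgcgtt
Chac1: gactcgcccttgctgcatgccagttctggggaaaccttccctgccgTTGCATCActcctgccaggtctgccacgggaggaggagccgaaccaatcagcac
Syvn1: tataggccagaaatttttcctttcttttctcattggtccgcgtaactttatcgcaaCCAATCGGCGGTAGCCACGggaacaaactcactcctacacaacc

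Values are given as log2 of the sample signal over the reference signal, and a difference is the mutant mean less the control mean on that scale. The arrays were not equally alike. The spread between arrays was taken as the scaled median absolute deviation of their log2 ratio differences over the tested genes. It was 0.16 for controls 1 and 2 and 0.10 for mutants 2 and 3, whereas all other pairs had 0.33 to 0.73. Control 3 and mutant 1 stood apart from the rest. In the sample channel 62.6% (control 3) to 76.2% (mutant 1) of probes were well above background, and the median signal over background was 4.66 on control 3 against 11.3 to 12.4 elsewhere. Controls 1 and 2 shared a slide, control 3 had its own slide and scan day, and the mutants shared yet another slide; slide and genotype thus cannot be told apart. The median log2 ratio of 8 squamous markers was 3.56, 3.57 and 4.27 on controls 1 to 3 and 3.096, 3.074 and 2.827 on mutants 1 to 3. By this measure the mutants were wholly lower. By summed signal the groups overlapped, with 1226580, 1328640 and 1772110 on controls 1 to 3 and 1533870, 1264700 and 1317680 on mutants 1 to 3. The summed signal of 8 parietal and chief cell markers was 805217 and 758114 on controls 1 and 2, 2515 on control 3, 3869 on mutant 1, and 133232 and 62759 on mutants 2 and 3. The 5 smooth muscle markers summed to 67735 on control 3 and 93338 on mutant 1 against 389549 to 652747 elsewhere, and the 7 myeloid markers to 23270 to 70481 in controls against 94729 to 134784 in mutants. Of 8 plasma and B cell markers, Cd79a was not well above background on any array. The part of these cell types in the results below was not tested, and in such bulk samples a change in cell number and a change in RNA per cell cannot be told apart.

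Sox2 itself had log2 ratios of 6.26, 6.09 and 6.38 on controls 1 to 3 and of 5.67, 5.83 and 5.95 on mutants 1 to 3, with the mutants wholly lower. The difference was -0.43 ± 0.14 (SE; limma adjusted p = 0.143). The array's Sox2 probe begins at base 1846 of its transcript, and no source used here says whether the Rosa26 transcript holds that stretch. The probe therefore does not check the labels, and every direction below rests on the groups as labelled.

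None of the 10 genes passed the test between mutants and controls (limma, adjusted p under 0.05 over 20406 genes), where 2.83% of all genes did (578 genes). At an unadjusted p under 0.05 there were 2 of the 10, Trib3 and Asns, both higher in mutants, beside 23.9% of all genes. On 4 genes (Trib3, Asns, Atf4 and Creld2) every mutant array lay above every control array, and on 2 genes (Chac1 and Dnajb9) below. These 6 of 10 stand beside 38% of all genes whose groups did not overlap, 19.7% higher and 18.2% lower. The median difference of the 10 was 0.04, against 0.01 for all genes, and the median size of the difference was 0.20, against 0.26. The 95% interval of the difference lay within a 2-fold change in either direction for 8 of the 10 genes, beside 14349 of all 20406 genes. It did not for Asns and Chac1. An exact permutation test of 3 against 3 arrays cannot go below p = 0.1, which those 6 genes reached.

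**Figure D1:**
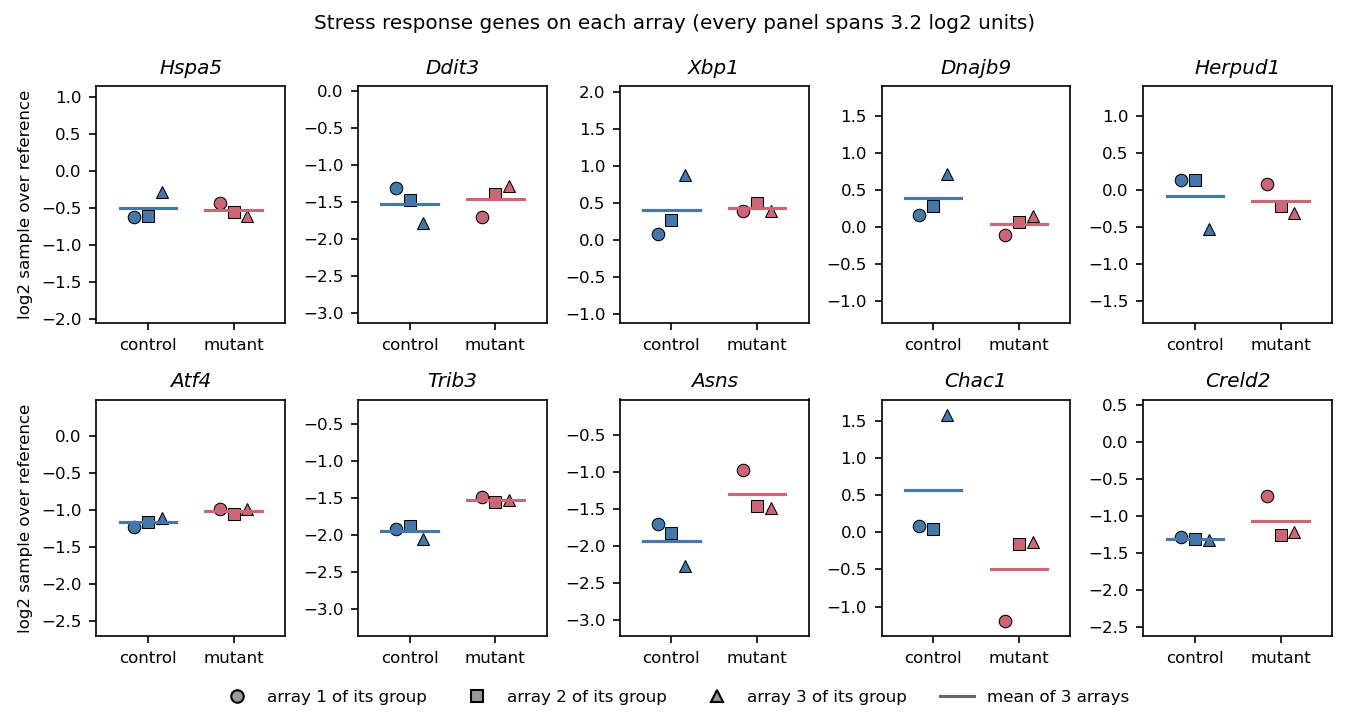
Log2 ratio of sample over reference (vertical axis) for each of the 10 genes on the 3 control arrays (blue) and the 3 mutant arrays (red), with the symbol giving the array's number and the line the mean of 3 arrays. Every panel spans the same number of log2 units. Trib3 and Asns lie higher and Chac1 and Dnajb9 lower on all 3 mutant arrays, while Hspa5, Ddit3, Xbp1 and Herpud1 overlap.

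The chaperone and quality control genes of the ER among the 10 genes showed no shared direction. Hspa5, which encodes BiP, the chief ER chaperone and the keeper of the stress sensors in their inactive state, had log2 ratios of -0.63, -0.61 and -0.28 on controls 1 to 3 and of -0.44, -0.55 and -0.61 on mutants 1 to 3. The mutants lay inside the range of the controls, whose highest value came from control 3. The difference was -0.03, with a 95% interval from -0.37 to 0.31 (limma adjusted p = 0.924). Its probe lies at chr2:34631630-34631689 on the + strand (mouse build mm9, per the file headers).

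Creld2, an ER protein that is secreted under ER stress, read -1.29, -1.31 and -1.33 on the controls and -0.73, -1.27 and -1.23 on the mutants. The controls were nearly equal, mutants 2 and 3 lay just above them, and mutant 1 was far higher than both. The difference of 0.24 ± 0.17 (SE; limma adjusted p = 0.424) was 0.06 with control 3 and mutant 1 left out.

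Herpud1, a membrane protein of the ER degradation complex, read 0.13, 0.14 and -0.54 on the controls and 0.07, -0.22 and -0.31 on the mutants. Control 3 was the lowest of all arrays and the other controls the highest, so the groups overlapped and the difference was -0.06 (95% interval -0.60 to 0.48; limma adjusted p = 0.886). Without control 3 and mutant 1 the difference was -0.40 with a limma adjusted p of 0.0118, in a fit in which 37.7% of all genes passed. This alternative was chosen after the arrays had been seen to stand apart.

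Dnajb9, which encodes the BiP co-chaperone ERdj4, has 3 probes. The brightest read 0.16, 0.28 and 0.72 on the controls and -0.11, 0.08 and 0.15 on the mutants, wholly lower in mutants, although mutant 3 lay just under control 1. The difference was -0.35 ± 0.18 (SE; limma adjusted p = 0.290). A probe at base 1256 of the transcript differed by -0.54 (adjusted p = 0.142 in a fit of all probes with limma) and was also wholly lower, whereas the probe at base 780 differed by -0.10 and its groups overlapped. Control 3 was the highest array on all 3 probes, and without control 3 and mutant 1 the difference of the brightest was -0.11.

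Xbp1, the transcription factor whose mRNA is spliced by IRE1, read 0.09, 0.27 and 0.88 on the controls and 0.40, 0.50 and 0.40 on the mutants. The mutants were close together and the controls spanned 0.79, with control 3 the highest of the 6 arrays. The difference was 0.02 (95% interval -0.50 to 0.55; limma adjusted p = 0.964). The probe begins at base 894 of the transcript, past the segment that IRE1 removes, and so reads the spliced and the unspliced form together.

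Of the 10 genes, those of the eIF2 alpha and amino acid branch that encode transcription factors had small differences. Atf4 read -1.23, -1.16 and -1.10 on the controls and -0.98, -1.06 and -0.98 on the mutants. Both groups were tight and did not overlap, with mutant 2 just above control 3. The difference was 0.16 ± 0.11 (SE; limma adjusted p = 0.399), and its 95% interval ran from -0.10 to 0.42. Ddit3, which encodes the pro-death factor CHOP, read -1.31, -1.48 and -1.79 on the controls and -1.70, -1.40 and -1.28 on the mutants. The groups overlapped throughout, with control 3 and mutant 1 the lowest, and the difference was 0.06 (95% interval -0.37 to 0.50; limma adjusted p = 0.847). Its probe spans 304 bases of the genome at chr10:126732518-126732821 (mm9, + strand), since the 60 bases lie across an exon junction.

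Trib3, a pseudokinase that is raised by ATF4 and CHOP and restrains both, had the smallest p of the 10. Its brighter probe, at chr2:152163355-152163414 on the - strand (mm9), read -1.91, -1.88 and -2.05 on the controls and -1.49, -1.56 and -1.53 on the mutants. Both groups were tight and lay apart. The difference was 0.42 ± 0.11 (SE), a 1.34-fold higher ratio (95% interval 1.11 to 1.61) with a limma adjusted p of 0.10. Trib3 stood at place 1586 by p among the 20406 genes. The further probe, at base 1127 of the transcript, read -1.06, -1.26 and -0.85 on the controls and -0.76, -0.86 and -0.78 on the mutants, where control 3 lay within the mutants. Its difference was 0.25 (adjusted p = 0.313 in the fit of all probes with limma). Without control 3 and mutant 1 the gene's difference was 0.35 with a limma adjusted p of 0.0134, again where 37.7% of all genes passed.

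Asns, asparagine synthetase, which makes asparagine from aspartate and glutamine, read -1.70, -1.82 and -2.27 on the controls and -0.96, -1.45 and -1.48 on the mutants. The groups did not overlap, with control 3 the lowest and mutant 1 the highest array. The difference was 0.63 ± 0.22 (SE), a 1.55-fold higher ratio (95% interval 1.07 to 2.23) with a limma adjusted p of 0.158. The reference channel, which holds the same RNA on all arrays, differed by -0.45 at this probe, and the sample channel by 0.17. The log2 sample signals were 15.48, 15.44 and 15.39 on the controls and 15.90, 15.51 and 15.42 on the mutants. In the sample channel mutant 1 alone stood out, mutant 3 lay below controls 1 and 2, and the limma adjusted p was 0.578. The log2 ratio difference without control 3 and mutant 1 was 0.29 (limma adjusted p = 0.0347, with 37.7% of all genes passing). On the arrays kept there the sample signals of the groups overlapped. The log2 reference signals were 17.17 and 17.26 on controls 1 and 2 and 16.96 and 16.90 on mutants 2 and 3. This difference in the log2 ratio thus lay in the reference channel rather than in the sample channel.

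Chac1, which degrades glutathione and is induced through ATF4 and CHOP, showed the widest spread of the 10. It read 0.08, 0.05 and 1.59 on the controls and -1.20, -0.15 and -0.13 on the mutants. Controls 1 and 2 and mutants 2 and 3 lay close to each other, while control 3 was the highest and mutant 1 the lowest array, so that the gap between the groups was small against their spread. The difference was -1.07 ± 0.50 (SE), a 2.10-fold lower ratio in mutants, with a limma adjusted p of 0.252 and a 95% interval from -2.28 to 0.14. Without control 3 and mutant 1 it was -0.21 (limma adjusted p = 0.0602), and without control 3 alone -0.56 (limma adjusted p = 0.344). Control 3 exceeded the mean of controls 1 and 2 by 1.52, made up of 0.74 more in the sample channel while its reference channel changed by -0.78. Mutant 1 differed from the mean of mutants 2 and 3 by -1.06, and by -1.04 in the sample channel. The arrays with these extreme values are those with low parietal, chief and smooth muscle markers, and the part of those cells in the Chac1 values was not tested.

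**Figure D2:**
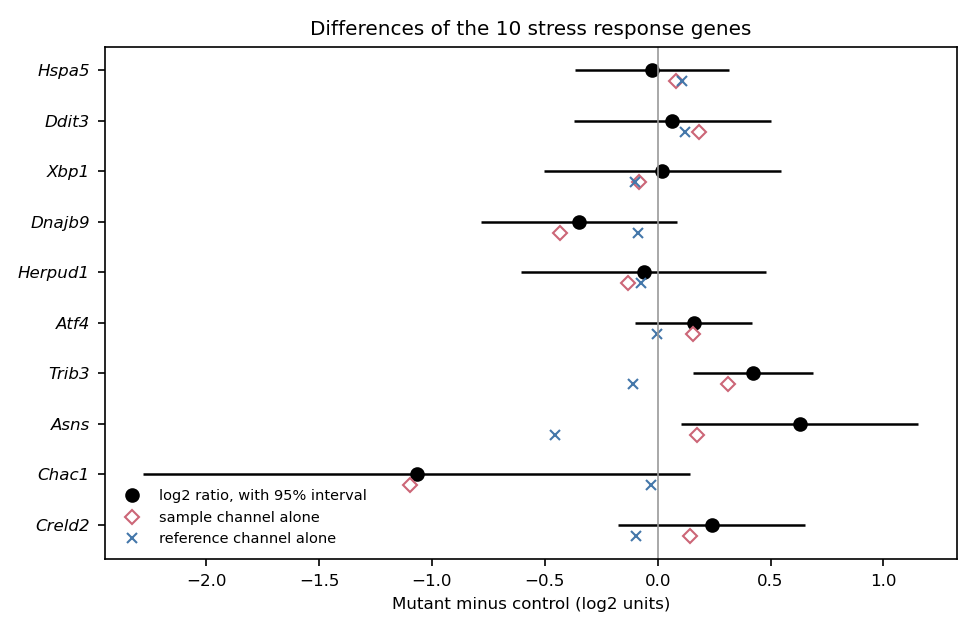
Mutant minus control difference in log2 units (horizontal axis) for each of the 10 genes, as the log2 ratio with its 95% interval (black), the sample channel alone (open diamonds) and the reference channel alone (crosses), 3 arrays against 3. The interval lies above 0 for Trib3 and Asns, and for Asns the reference channel differs by -0.45 and the sample channel by 0.17.

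The order of the differences was therefore Asns, Trib3, Creld2, Atf4, Ddit3, Xbp1, Hspa5, Herpud1, Dnajb9 and Chac1, from the highest to the lowest. The intervals of Creld2, Atf4, Ddit3, Xbp1, Hspa5 and Herpud1 all included 0 and overlapped each other. Those of Dnajb9 (-0.78 to 0.09) and Chac1 (-2.28 to 0.14) included 0 as well. In the sample channel alone none of the 10 passed either, beside 1.71% of all genes, and the differences ran from -1.10 for Chac1 to 0.31 for Trib3 (limma adjusted p = 0.246). All 13 probes were well above background on all 6 arrays and none was saturated. The median range over the 3 controls was 0.52 log2 units for the 10 genes and 0.43 for all genes, and over the 3 mutants 0.32 and 0.29.

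The wider pathway was described by 9 lists with 122 genes, all of them tested. Of these, 5 fell in mutants and none rose, which is 4.10% of the 122. Of all genes 2.83% passed in either direction, 1.43% lower and 1.41% higher in mutants. Differences were above 0 for 83 of the 122 (68.0%), beside 50.6% of all genes, with a median of 0.16 against 0.01 for all genes. In the sample channel alone they were above 0 for 72 (59.0%), beside 50.05% of all genes, with a median of 0.10. At an unadjusted p under 0.05 there were 28 of the 122 (23%), 20 higher and 8 lower, a share near the 23.9% of all genes. The groups did not overlap for 42.6% of the 122, beside 38% of all genes. Mutants lay wholly above for 41 and wholly below for 11 of the 122, beside 19.7% and 18.2% of all genes.

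The 5 genes that fell belong to ER protein processing and to sulfur amino acid metabolism. Edem1, a lectin that delivers misfolded glycoproteins to degradation, read -0.65, -0.56 and -0.68 on the controls and -1.27, -1.30 and -1.28 on the mutants. It fell by 0.65 ± 0.11 (SE; limma adjusted p = 0.0374), and its other probes differed by -0.47 and -0.86. Syvn1, the ubiquitin ligase HRD1 of ER-associated degradation, read 0.07, 0.09 and 0.28 on the controls and -0.50, -0.85 and -0.85 on the mutants, a difference of -0.88 ± 0.15 (SE; limma adjusted p = 0.0413). Its further probe differed by -0.08 (adjusted p = 0.695 in the fit of all probes with limma), so the probes of this gene disagree.

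Creld1, the paralog of Creld2, read 1.13, 1.23 and 1.47 on the controls and 0.32, 0.55 and 0.51 on the mutants. It fell by 0.82 ± 0.14 (SE; limma adjusted p = 0.0433), whereas Creld2 had a difference of 0.24; the difference between these paralogs was not tested. Sec11c, a catalytic subunit of the signal peptidase, read 0.56, 0.61 and 1.06 on the controls and -0.33, -0.15 and -0.22 on the mutants, a difference of -0.97 ± 0.17 (SE; limma adjusted p = 0.0433). Cbs, cystathionine beta-synthase, which starts the conversion of homocysteine to cysteine, read 2.17, 2.28 and 1.78 on the controls and 0.96, 0.97 and 1.12 on the mutants. On the probe that stood for each of the 5 genes that fell, the groups did not overlap. The test had picked these genes on the same values, so this adds no support. Cbs fell by 1.06 ± 0.16 (SE; limma adjusted p = 0.0317), and it alone of the 5 also passed in the sample channel, at -1.46 (limma adjusted p = 0.0288). All 5 calls were lost without control 1, without control 2, without mutant 2 or without mutant 3, while their direction was kept in all 22 alternatives.

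**Figure D3:**
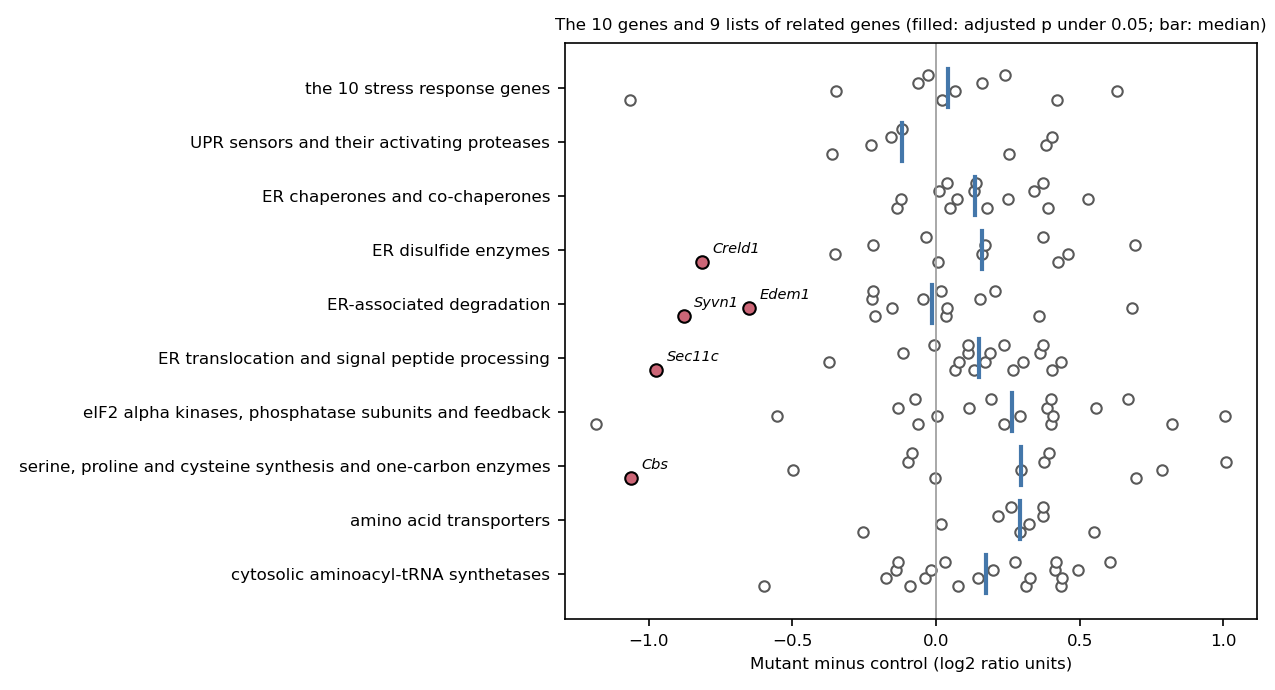
Mutant minus control difference in log2 ratio units (horizontal axis) for every gene of the 10 stress response genes and of 9 lists of related genes; each point is a gene, the bar is the list's median, and filled points are genes with an adjusted p under 0.05. The 5 filled points, Creld1, Syvn1, Edem1, Sec11c and Cbs, all lie below 0, while 7 of the 9 lists have a median above 0, that of the disulfide enzymes being -0.12 in the sample channel alone.

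Of the 7 sensors and activating proteases none passed and the median was -0.12. Mbtps1 and Mbtps2, the proteases that release ATF6, differed by 0.38 and 0.40, Ern1, which encodes IRE1, by 0.25, and Atf6 by -0.16, with limma adjusted p from 0.191 to 0.490. On Mbtps1 mutant 1 read -0.52 against -1.16 and -1.18 on mutants 2 and 3. A further probe of Mbtps1 differed by 0.95 (adjusted p = 0.0185 in the fit of all probes with limma), and that of Atf6 by 0.29, opposite in sign to its brighter probe. Of 14 ER chaperones and co-chaperones none passed, 12 had differences above 0, and the median was 0.14. In the sample channel alone 8 of the 14 were above 0, with a median of 0.06. Over this list the median excess of control 3 over controls 1 and 2 was -0.24, and that of mutant 1 over mutants 2 and 3 was 0.23. The 4 with the smallest p were Dnajc10 at 0.34, Sdf2l1 at 0.53, Hsp90b1, the ER form of Hsp90, at 0.39 and Manf at 0.25. In the sample channel alone they differed by 0.32, 0.33, 0.19 and -0.0064, in the same order. For Sdf2l1 and Hsp90b1 mutant 1 was the highest array by far.

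Among 11 enzymes of disulfide formation Creld1 fell and none rose, with a median of 0.16 in the log2 ratio and of -0.12 in the sample channel alone. The oxidase Ero1a, which hands electrons from disulfide isomerases to oxygen, differed by 0.69 (limma adjusted p = 0.148), Pdia5 by 0.42 and Txndc5 by 0.46. Ero1a read -1.31 on mutant 1 against -2.03 and -2.05 on mutants 2 and 3, and its difference without mutant 1 was 0.45. Of 14 genes of ER-associated degradation 2 fell and none rose, with a median of -0.01. Ube2j1, a ubiquitin-conjugating enzyme of the ER membrane, differed by 0.68 on its brighter probe and by -1.71 on the other (adjusted p = 0.00282 in the fit of all probes with limma), so no direction can be given. Os9, a lectin of the same route, differed by -0.22 and its further probes by 0.20 and 0.24. Of 18 genes of translocation and signal peptide processing Sec11c fell and none rose, with a median of 0.15. Ssr2, Srp72 and Spcs3, named for their small p, differed by 0.43, 0.40 and 0.37, and their mutants were wholly above the controls.

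Of 18 genes around eIF2 alpha and its feedback none passed, 13 had differences above 0, and the median was 0.26. The median excess of control 3 over controls 1 and 2 was -0.21, and that of mutant 1 over mutants 2 and 3 was 0.18. Cebpb, a transcription factor that pairs with ATF4, differed by -1.18 (limma adjusted p = 0.0642), and Sesn2, an inhibitor of mTORC1, by -0.55, while the further probe of Sesn2 differed by -0.01 (adjusted p = 0.960 in the fit of all probes with limma). Eif2ak2, the eIF2 alpha kinase activated by double-stranded RNA, differed by 0.82 (limma adjusted p = 0.0668) and the death receptor gene Tnfrsf10b by 0.67. The further probe of Cebpb differed by -0.71 and those of Tnfrsf10b by 0.54 and 0.19. On the brightest probe of each of these 4 genes the groups did not overlap, but the genes were named for their small p on the same values. Of 11 enzymes of serine, proline, cysteine and one-carbon metabolism Cbs fell and none rose, with a median of 0.29. Here the median excess of control 3 over controls 1 and 2 was -0.40, and that of mutant 1 over mutants 2 and 3 was 0.14. Psat1, which makes phosphoserine, differed by 1.01 (limma adjusted p = 0.0668), and read 0.21 on mutant 1 against -0.36 and -0.39 on mutants 2 and 3. The mitochondrial folate enzyme Mthfd2 differed by 0.79 and Cth, which acts after Cbs on the way to cysteine, by -0.50 (limma adjusted p = 0.135). Both enzymes of the route from homocysteine to cysteine thus had differences under 0, although the test passed for Cbs and not for Cth.

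Of 9 amino acid transporters none passed, 8 had differences above 0, and the median was 0.29. Over this list the median excess of control 3 over controls 1 and 2 was -0.35, and that of mutant 1 over mutants 2 and 3 was 0.31. With 1 array left out Slc7a5 ranged from 0.13 (without control 3) to 0.53, and Slc3a2 from 0.18 (without mutant 1) to 0.47. Slc1a4, Slc3a2 and Slc7a5 differed by 0.33, 0.37 and 0.37, and Slc7a11, the cystine carrier that depends on Slc3a2, by 0.55, where control 3 lay among the mutants. Of 20 cytosolic aminoacyl-tRNA synthetases none passed, 13 had differences above 0, and the median was 0.17. For 7 of the 20 the unadjusted p was under 0.05, all with higher values in mutants, beside 23.9% of all genes in either direction. For 10 of the 20 the mutants lay wholly above, beside 19.7% of all genes. The lysyl-tRNA synthetase gene Kars read -0.95, -0.90 and -1.0 on the controls and -0.45, -0.52 and -0.57 on the mutants, a difference of 0.44 (limma adjusted p = 0.0906). Nars, Mars1 and Lars differed by 0.43, 0.42 and 0.49, with limma adjusted p from 0.122 to 0.137.

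**Figure D4:**
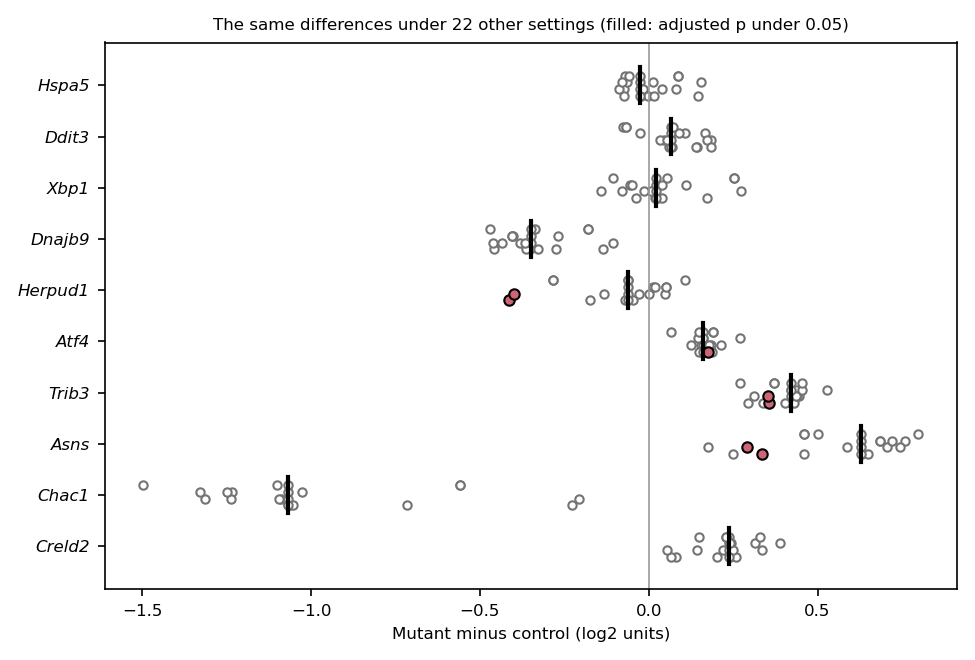
Mutant minus control difference in log2 units (horizontal axis) of each of the 10 genes under 22 other settings of the processing or choices of arrays (points) and as reported (black bar); filled points have an adjusted p under 0.05. Trib3, Asns, Atf4 and Creld2 stay above 0 and Chac1 and Dnajb9 below 0 at every setting, while Hspa5, Ddit3, Xbp1 and Herpud1 lie on both sides.

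The size of the differences depended on the setting. Chac1 ranged from -1.50 to -0.21 over the 22 alternatives, Asns from 0.17 to 0.80, Trib3 from 0.27 to 0.53, Dnajb9 from -0.47 to -0.11, Creld2 from 0.06 to 0.39 and Atf4 from 0.06 to 0.27. The directions of these 6 genes were kept in all 22. Genes among the 10 passed in 2 of the 22: with array weights, where 56.7% of all genes passed, and with control 3 and mutant 1 left out, where 37.7% did.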

How the data were processed

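The deposited intensity values are the scanner software's own spot signals. Per the file headers control 3 was read with Agilent Feature Extraction 10.7.3.1 and the other 5 arrays with 10.5.1.1, while the submitters' processing notes name 9.1. The headers name mouse build mm9 for probe positions. The authors' deposited table of log2 ratios served as an alternative. Against the scanner files its scale was log2 and its direction sample over reference, with column medians of 0.052, 0.06, 0.026, 0.042, 0.043 and 0.039; its centring is unknown. The numbers of mutants 1 and 3 appear exchanged between the table and the scanner files, and it is not known in which of them: the table's mutant 1 column correlated with mutant 3's scanner values at 0.988 and with its own at 0.907, and the mutant 3 column with mutant 1's at 0.988 and with its own at 0.908. All numbers given for these arrays are those of the scanner files.

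In limma 3.58.1 (R 4.3.3), normexp with an offset of 50 corrected the mean signals and loess normalized each array, without control and outlier spots, and spots of a probe were averaged. Of 41174 probes, 32699 were named through RefSeq (GRCm38.p6) and 272 had no gene name. Probes entered whose sample signal was well above background on 3 or more of the 6 arrays. The probe with the highest mean sample signal stood for a gene, which gave 20412 genes, 20406 of them with a p. Groups were compared with lmFit and eBayes, two-sided, with Benjamini-Hochberg adjustment and a threshold of 0.05. The fit has 4 residual degrees of freedom, and the number of arrays limits the precision. Channel values come from the same arrays after Aquantile. No label says how animals were kept apart, so the spread behind the p-values may be partly technical.

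The 10 genes, the lists, the tests and the alternatives were chosen with earlier results of these data known. Named are all 10 genes, and of each list the 4 with the smallest p and any that passed. Alternatives concerned background, normalization, channel, filter, probe choice, blocks, weights and arrays left out.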

Additional observations from a re-analysis of the deposited data

How the results depend on the processing

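The count of all genes past the threshold, 578, was 327 with the scanner software's processed signals, 270 with median centring, 312 in the sample channel alone with quantile normalization and 348 there with Aquantile. It was 137 with the replicate block, 4 with slide as a random block, 1474 with scan day as a block, 11560 with array weights, 0 with the near-identical arrays averaged, and 7693 with control 3 and mutant 1 both left out, an alternative chosen after seeing the data. In limma with arrays averaged 2181 genes had an unadjusted p under 0.05, against 4874 over the 6 arrays. Leaving out 1 array at a time gave 34 (without mutant 2) to 1474 (without control 3), with 57, 43, 615 and 36 without control 1, control 2, mutant 1 and mutant 3. Of the 10 stress response genes 0 passed in each of these, except 4 with array weights and 3 with control 3 and mutant 1 both left out. Leaving out 1 array gave 0 each time.

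Of the 220 values of the 10 genes 25 had the opposite direction, all of Hspa5, Ddit3, Xbp1 or Herpud1. Hspa5 was 0.16 with median centring, 0.15 and 0.0792 in the sample channel (quantile, Aquantile), 0.0860 with scan day, 0.0140 with array weights and 0.0379 with both arrays left out, and -0.0872 to 0.0860 with 1 array left out. Herpud1 was 0.0524 with median centring, 0.0123 with slide and 0.11 with arrays averaged, and -0.29 to 0.0518 with 1 left out. Ddit3 was -0.0761 with arrays scaled and -0.0670 with scan day, and -0.0670 to 0.19 with 1 left out. Xbp1 was -0.0365 and -0.0806 in the sample channel, -0.0568 with slide and -0.11 with arrays averaged, and -0.14 to 0.25 with 1 left out. Of 792 values of 36 other named genes 6 had the opposite direction: Manf -0.0064 in the sample channel after Aquantile and -0.00071 with both arrays left out, Atf6 0.00067 with array weights and 0.0681 with the mean over probes, Ube2j1 -0.52 and Os9 0.0717 with the mean over probes. The 5 genes that fell lost their call with the replicate block, with slide as a random block and with arrays averaged.

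Taken as deviations from the mean of their group, arrays of the same number correlated at 0.006, 0.019 and 0.13. Over all pairs of a control and a mutant the correlations ran from -0.12 to 0.13. The highest was that of control 3 with mutant 3, while control 1 correlated best with mutant 2. The numbers were not taken to pair the samples. The causes of these changes were not tested. Control 3's weaker signal limits dim probes, and all 13 member probes were well above background on it. The part of this weaker signal in the values of control 3 was not tested.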
